A study of Mus musculus with 12 samples.

Results

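The genes described here are Eda2r, a receptor gene that was among the clearest rises in EIIa-tg hearts, and 9 other targets of the transcription factor p53: Cdkn1a, Mdm2, Ccng1, Bax, Trp53inp1, Phlda3, Sesn2, Bbc3 and Zmat3. They were found by gene symbol as 10 of the 25171 loci in the count table, and Eda2r was chosen by its counts in the EIIa-tg and EIIa-ctl hearts. RNA was sequenced from the hearts of mice carrying a human NOTCH2NLC transgene with 98 GGC repeats, placed in the Rosa26 locus behind a stop cassette that Cre removes. The aim of the sequencing was to find genes that respond to the expanded repeat in the heart when it is expressed in all cells or in cardiomyocytes. There were 4 groups of 3 hearts. EIIa-tg hearts, taken at postnatal day 30, carried the transgene with EIIa-Cre, which acts in the early embryo and so switches the transgene on throughout the body. EIIa-ctl hearts of the same age carried the conditional transgene without EIIa-Cre. Myh6-tg hearts, taken at postnatal day 90, came, by their labels, from mice that also carried a tamoxifen-dependent Cre driven by the cardiomyocyte promoter Myh6, and that received 3 injections of tamoxifen at 75 mg/kg, every other day from postnatal day 60. Myh6-ctl mice of the same age and labelled genotype received corn oil in place of tamoxifen. Expression of the transgene, presence or activity of Cre and, in the Myh6 model, tamoxifen itself therefore cannot be told apart within either comparison.

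p53, encoded by Trp53, is held at a low level by the ubiquitin ligase Mdm2 and accumulates after DNA damage and other stresses, when it binds response elements near its target genes. The targets stop the cell cycle, promote cell death, adjust metabolism or feed back on p53 itself. Eda2r encodes a receptor of the tumour necrosis factor receptor family that binds the A2 form of ectodysplasin, the product of Eda, and signals through TRAF proteins to NF-kappaB.

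The binding element of p53 is shown because it is what these genes are known to share. It consists of 20 bases in a pair of 10-base repeats, each with a core of C, 2 bases and G, here allowed to be 0 or 1 base apart. Windows from 250 bases before to 50 bases after the start of each gene (RefSeq, GRCm38.p6) were searched on both strands for this p53 response element with at most 1 letter departing from it. A window was held for 8 of the 10 genes. The element was found in the windows of 3 of these 8 genes, of 2 of 39 other p53 targets and of 57 of 27025 genes in all (0.211%). The matches are given on the strand of the gene, with the core of each repeat in capitals; each departs in 1 letter.
Cdkn1a, chr17:29090928-29090947, plus strand, 51 to 32 bases before the start: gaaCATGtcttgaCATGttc
Ccng1, chr11:40755462-40755481, minus strand, 195 to 176 bases before the start: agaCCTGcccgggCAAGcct
Bax, chr7:45467090-45467110, minus strand, 212 to 192 bases before the start: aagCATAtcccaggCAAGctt
For Eda2r, Mdm2, Phlda3, Sesn2 and Bbc3 no stretch of the window came within 1 letter of the element, and Trp53inp1 and Zmat3 had no window. The closest stretches were 3 letters away in Bbc3, 4 in Eda2r and 5 in Mdm2, Phlda3 and Sesn2. A match is a likeness of letters, not a measured binding site, and elements outside these windows were not searched.

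The libraries held 38343106 to 50969834 counts each, so that 3 counts correspond to 0.0589 to 0.0782 CPM (counts scaled to library size), and every one of the 10 genes stood above this in every heart. All 8 cardiomyocyte markers were present in all hearts. The share of counts from mitochondrially encoded genes was 17.3% ± 1.62 (SD, n = 3) in Myh6-tg hearts, against 35.9% ± 3.56 for their controls, and 30.7% ± 1.99 against 35.1% ± 1.36 in the EIIa model. Replicate 1 of every group held 4224 to 7307 counts from 4 Y-linked genes and the other hearts no more than 2, so replicate number and sex moved together. Esr1, the estrogen receptor gene, was at 1030 to 2330 CPM in Myh6-ctl and at 1.00 to 2.52 CPM in Myh6-tg hearts (log2 fold change -9.94, adjusted p = 0.000845, edgeR). By the study's methods the Cre of this model is fused to a part of an estrogen receptor, and both groups have the same labelled genotype, so a difference of this size puts the Cre genotype or the group labels of the Myh6 hearts in question. Whether the counts came from the Cre was not tested, and every Myh6 comparison given here is between hearts as labelled.

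Eda2r was higher in the 3 EIIa-tg hearts than in any of the other 9 hearts. It lies on chromosome X (97333840 to 97377216, minus strand, GRCm38) and shares no exonic bases with another gene. Eda2r was at 5.56, 6.83 and 4.78 CPM in EIIa-ctl hearts and at 20.7, 16.0 and 25.9 CPM in EIIa-tg hearts. Every EIIa-tg heart was thus above every EIIa-ctl heart, with a log2 fold change of 1.86 ± 0.20 (SE, 3 hearts per group). This rise is part of how the gene was chosen and is given with no test. Among Myh6 hearts, Eda2r was at 4.37, 9.66 and 9.49 CPM in Myh6-ctl and at 2.60, 10.7 and 12.7 CPM in Myh6-tg hearts. The Myh6 groups overlapped, replicate 1 was the lowest heart of each, and the log2 fold change was 0.15 ± 0.56 (adjusted p = 0.886, edgeR quasi-likelihood test, Benjamini-Hochberg adjustment over all genes). The sign of this value depended on single hearts: it was -0.14 without Myh6-ctl replicate 1, -0.03 without Myh6-tg replicate 2, -0.24 without Myh6-tg replicate 3 and -0.04 with the replicate number as a block. In order of mean level the groups ran EIIa-ctl (5.72 ± 1.03 CPM, SD), Myh6-ctl (7.84 ± 3.01), Myh6-tg (8.66 ± 5.34) and EIIa-tg (20.9 ± 4.97). Each of the 3 lower groups overlapped its neighbour, and EIIa-tg alone lay apart from the group below it.

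Cdkn1a, which encodes the cyclin-dependent kinase inhibitor p21 that stops the cell cycle, had the largest fold change of the 10 genes in both models. Its gene is on chromosome 17 (29090976 to 29100727), and 273 of its exonic bases are shared with AC167363.2 on the opposite strand, whose reads a kit that does not mark strand cannot separate. Cdkn1a was at 15.2, 42.0 and 14.2 CPM in EIIa-ctl and at 263, 143 and 398 CPM in EIIa-tg hearts. EIIa-ctl replicate 2 was the highest control and EIIa-tg replicate 2 the lowest transgenic heart, yet they stayed well apart. It was at 62.6, 106 and 82.9 CPM in Myh6-ctl and at 184, 667 and 544 CPM in Myh6-tg hearts, again without overlap. The log2 fold change was 3.49 ± 0.51 in the EIIa model, given with no test, and 2.47 ± 0.47 in the Myh6 model, where Cdkn1a rose with an adjusted p of 0.0139 (edgeR). Without EIIa-ctl replicate 2 the EIIa value was 4.18, which moves the fold from 11.2 to 18.1. Left-out hearts moved that adjusted p from 0.000797 to 0.0667, and the call was lost without Myh6-ctl replicate 1 (0.0667) or replicate 3 (0.0542).

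Ccng1 was the only one of the 10 genes that was lower in transgenic hearts. It encodes cyclin G1, which takes part in feedback on p53 through Mdm2, and it lies on chromosome 11 (40748552 to 40755311). Ccng1 was at 868, 745 and 765 CPM in EIIa-ctl and at 399, 629 and 434 CPM in EIIa-tg hearts. It was at 881, 686 and 674 CPM in Myh6-ctl and at 457, 245 and 242 CPM in Myh6-tg hearts. All transgenic hearts of a model were below all of its controls. The log2 fold change was -0.70 ± 0.18 in the EIIa model, with no test, and -1.25 ± 0.30 in the Myh6 model (adjusted p = 0.0291, edgeR). The Myh6 call was lost when any heart other than Myh6-tg replicate 1 was left out (highest adjusted p = 0.113), with log2 fold changes of -1.09 to -1.62 throughout.

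Mdm2, which marks p53 for degradation and is itself a p53 target, had the smallest spread among EIIa-ctl hearts relative to its level. It was at 54.2, 54.2 and 55.0 CPM in EIIa-ctl and at 90.2, 75.1 and 107 CPM in EIIa-tg hearts, with no overlap (log2 fold change 0.73 ± 0.12). Mdm2 was at 63.7, 70.8 and 65.9 CPM in Myh6-ctl and at 54.8, 110 and 114 CPM in Myh6-tg hearts. Myh6-tg replicate 1 was below all 3 controls and the other 2 were well above them (log2 fold change 0.47 ± 0.28, adjusted p = 0.274, edgeR). Without that heart the adjusted p was 0.00988, and with any other heart left out it was 0.340 to 0.594. Mdm2 lies on chromosome 10 (117688875 to 117710758).

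Trp53inp1, a nuclear stress protein that promotes p53 phosphorylation and autophagy, had a larger change in the Myh6 than in the EIIa model. The log2 difference, given with no test, was 0.56 and ranged from 0.27 to 0.83 with a heart left out. That of Ccng1 was close to it in size (-0.55, range -0.92 to -0.32). Trp53inp1 was at 15.9, 14.7 and 13.2 CPM in EIIa-ctl and at 39.5, 25.5 and 38.4 CPM in EIIa-tg hearts. It was at 16.1, 23.8 and 28.5 CPM in Myh6-ctl and at 46.5, 108 and 83.7 CPM in Myh6-tg hearts. Neither pair of groups overlapped. Its log2 fold change was 1.24 ± 0.17 in the EIIa model, with no test, and 1.80 ± 0.35 in the Myh6 model, where it rose with an adjusted p of 0.0143 (edgeR). That call was lost without Myh6-ctl replicate 1 (adjusted p = 0.062). Its place is chromosome 4, 11156431 to 11174379.

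The pair of members that act at the mitochondrion to start cell death are Bax, which forms pores in the outer membrane, and Bbc3, which encodes the BH3-only protein PUMA. Bax (chromosome 7, 45461697 to 45466898) was at 21.4, 26.5 and 18.2 CPM in EIIa-ctl and at 44.7, 34.0 and 56.4 CPM in EIIa-tg hearts. It was at 18.6, 42.8 and 26.0 CPM in Myh6-ctl and at 25.2, 53.8 and 49.8 CPM in Myh6-tg hearts. The EIIa groups did not overlap (log2 fold change 1.03 ± 0.20), while the Myh6 groups did (0.56 ± 0.38, adjusted p = 0.333, edgeR). Bax shares 192 exonic bases with Gm45808 on the same strand, so the split of reads between them is uncertain. Bbc3 (chromosome 7, 16308393 to 16318205) was at 3.01, 4.25 and 5.38 CPM in EIIa-ctl and at 4.71, 6.20 and 6.59 CPM in EIIa-tg hearts, which overlapped (0.47 ± 0.25). It was at 4.57, 3.47 and 5.60 CPM in Myh6-ctl and at 6.30, 8.13 and 9.20 CPM in Myh6-tg hearts. Bbc3 was therefore the member with no overlap in the Myh6 model and overlap in the EIIa model. Its log2 fold change in the Myh6 model, 0.79 ± 0.28, did not pass the test (adjusted p = 0.0837, edgeR) and passed it without Myh6-tg replicate 1 (0.0402). With any other heart left out it did not pass (0.0918 to 0.264).

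Phlda3 competes with the kinase Akt for membrane lipids and so restrains Akt, and it lies on chromosome 1 (135766119 to 135769136). Phlda3 was at 14.2, 29.8 and 17.7 CPM in EIIa-ctl and at 69.7, 53.5 and 102 CPM in EIIa-tg hearts, with no overlap (log2 fold change 1.86 ± 0.31). It was at 16.7, 47.9 and 31.5 CPM in Myh6-ctl and at 36.4, 72.3 and 71.2 CPM in Myh6-tg hearts. Replicate 1 was the lowest heart of each Myh6 group, and the groups overlapped. Phlda3 was not called without the pairing (log2 fold change 0.91 ± 0.41, adjusted p = 0.161, edgeR) and was called with the replicate number as a block (0.97, adjusted p = 0.0159).

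Sesn2 restrains the growth kinase complex mTORC1 and supports antioxidant defence, and Zmat3 encodes an RNA-binding zinc finger protein. Sesn2 (chromosome 4, 132492032 to 132510501) was at 4.33, 5.24 and 4.54 CPM in EIIa-ctl and at 6.75, 5.92 and 11.3 CPM in EIIa-tg hearts (log2 fold change 0.76 ± 0.25). It was at 5.41, 6.52 and 6.32 CPM in Myh6-ctl and at 6.70, 6.42 and 7.59 CPM in Myh6-tg hearts (0.18 ± 0.22, adjusted p = 0.595, edgeR). The EIIa groups of Sesn2 were apart, with replicate 3 the highest, and the Myh6 groups overlapped. Zmat3 (chromosome 3, 32334792 to 32366014) was at 10.7, 14.5 and 13.9 CPM in EIIa-ctl and at 19.4, 17.8 and 20.6 CPM in EIIa-tg hearts (0.56 ± 0.14). It was at 16.1, 16.4 and 17.1 CPM in Myh6-ctl and at 14.4, 28.8 and 29.1 CPM in Myh6-tg hearts (0.55 ± 0.28, adjusted p = 0.206, edgeR). As for Mdm2, Myh6-tg replicate 1 was below all controls and the other Myh6-tg hearts were above them, and without that heart the adjusted p was 0.0105. With any other heart left out the adjusted p of Zmat3 was 0.317 to 0.491 (edgeR).

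**Figure D1:**
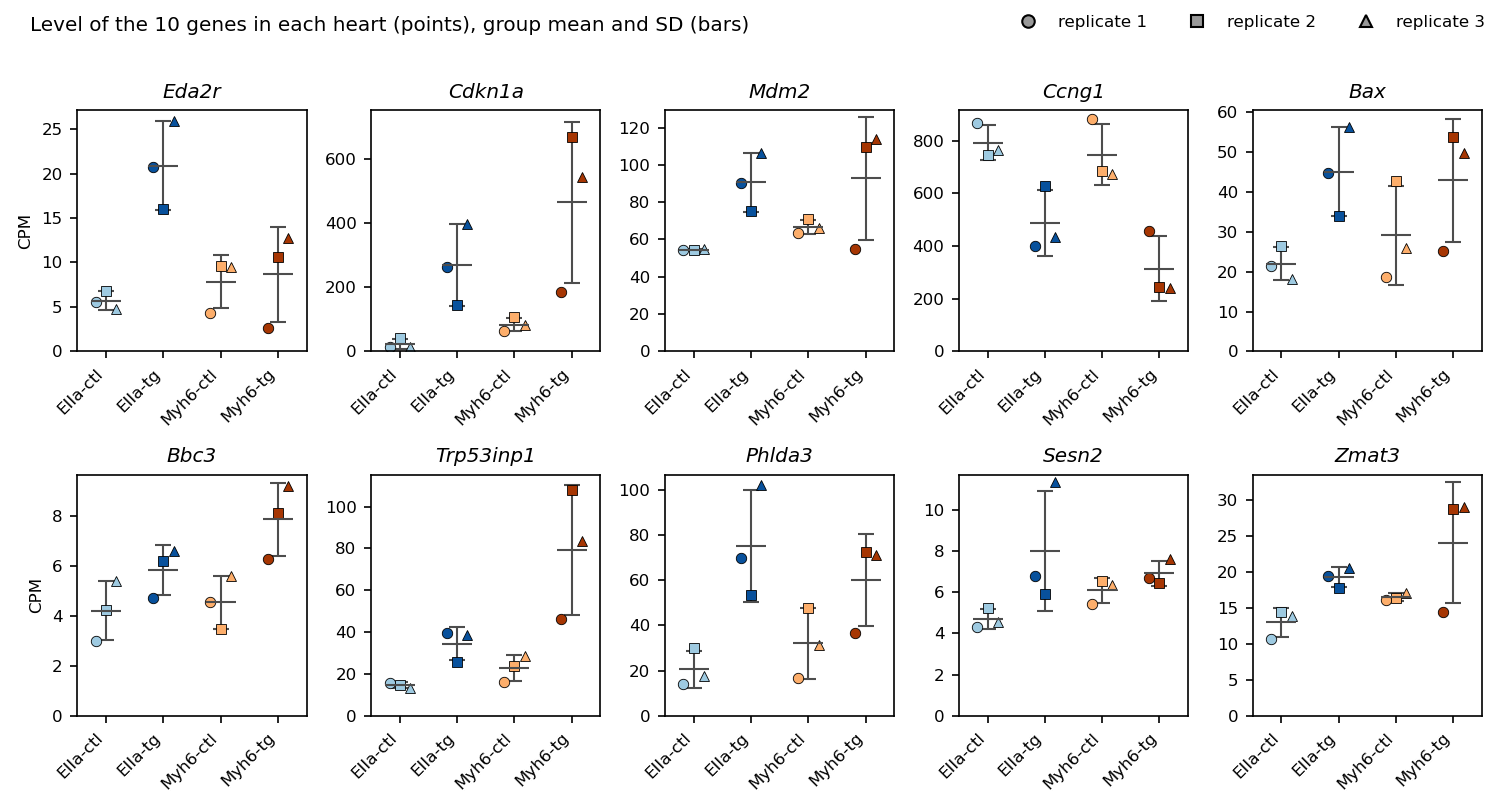
The level of each of the 10 genes in CPM (counts scaled to library size, vertical axis from 0) in the 12 hearts, by group; points are hearts, shaped by replicate number, and bars give the group mean and SD (n = 3). Eda2r is raised in EIIa-tg hearts alone (16.0 to 25.9 CPM), whereas Cdkn1a and Trp53inp1 are above their controls in every transgenic heart of both models and Ccng1 is below them.

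Across the 10 genes, 8 were higher in every EIIa-tg heart than in every EIIa-ctl heart, 1 (Ccng1) was lower in every one, and Bbc3 overlapped. Among all 14908 genes tested in that comparison 41% did not overlap, 20.3% being higher and 20.8% lower, but the choice of genes used these hearts, so nothing is read from the count. The choice of Eda2r did not use the Myh6 hearts, but the 10 genes were listed with earlier results of these data known. In the Myh6 hearts 3 genes were called at an adjusted p under 0.05 by edgeR: Cdkn1a and Trp53inp1 rose and Ccng1 fell. The background was 18.3% of 15298 genes tested (8.96% higher and 9.38% lower). A share of 30% over 10 genes is close to that background. At an unadjusted p under 0.05 there were 4. At the thresholds the study set (an adjusted p under 0.01 with a log2 change of 1 or more), edgeR called 0 of the 10, against 3.97% of all genes, and DESeq2 called 3, against 10.6% of the 20052 genes it tested. All 3 calls were lost without Myh6-ctl replicate 1 (4 genes at an unadjusted p under 0.05), 1 was kept without Myh6-ctl replicate 3, and 6 genes were called without Myh6-tg replicate 1. Calls over all genes moved too: those fits called 798 of 15931, 1637 of 15863 and 4269 of 15967 genes, against 2805 of 15298 with all hearts. Groups of the Myh6 model did not overlap for 3 genes that were higher and 1 that was lower, where the background was 40.2% in all, 20.6% higher and 19.6% lower. In the Myh6 model the median log2 fold change of the 10 genes was 0.55, beside 0.03 over all genes tested, and 9 of the 10 were positive. In the EIIa model it was 0.89, beside 0.02, and 9 of the 10 were positive. The EIIa hearts were used in the choice, so nothing is read from their values.

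**Figure D2:**
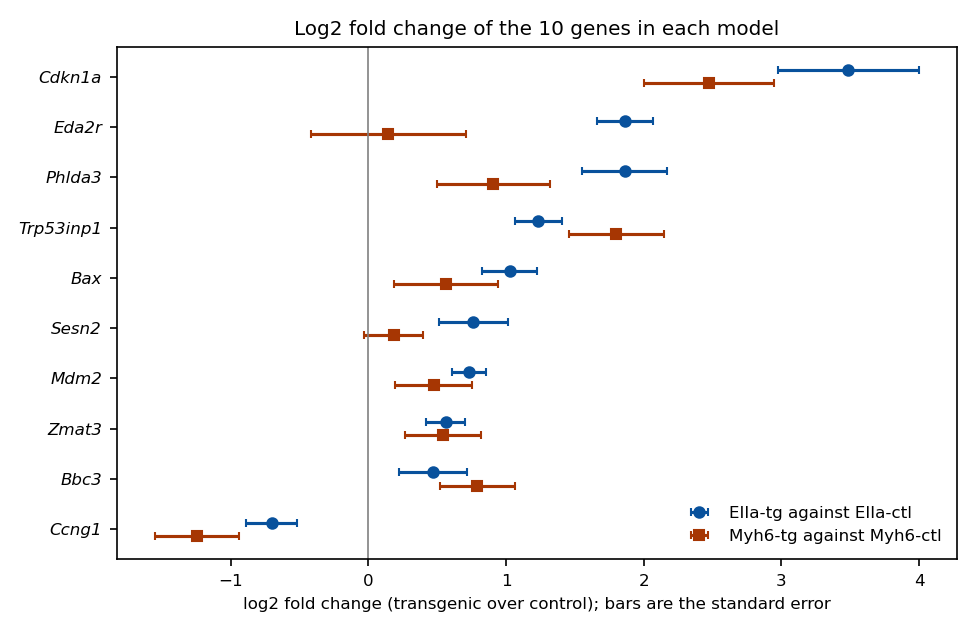
Log2 fold change of transgenic over control hearts (horizontal axis) for the 10 genes, ordered by the EIIa model; circles are the EIIa and squares the Myh6 model, bars are the standard error, and each comparison has 3 hearts per group. Eda2r has the widest gap between the models (1.86 against 0.15), but its EIIa rise was part of how it was chosen, so nothing is read from this gap. Ccng1 lies below 0 in both.

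The changes in the 2 models were set side by side as the change in Myh6-tg minus the change in EIIa-tg hearts, with no test because the EIIa change chose Eda2r. The largest such difference was that of Eda2r (-1.72 on the log2 scale), followed by Cdkn1a (-1.02) and Phlda3 (-0.96). Without EIIa-ctl replicate 2 the value of Cdkn1a was -1.72 and without EIIa-tg replicate 3 it was -0.63. With a heart left out Phlda3 ranged from -1.33 to -0.56 and Eda2r from -2.11 to -1.29. The order of Cdkn1a and Phlda3 therefore rested on single hearts, and the ranges of Eda2r and Cdkn1a overlapped. Because the EIIa rise chose Eda2r, nothing is read from its first place. The rise was larger in the Myh6 model for Trp53inp1 (0.56) and Bbc3 (0.32), the fall was larger there for Ccng1 (-0.55), and Zmat3 was nearly equal (-0.02). Age, line, Cre and treatment differ between the models and cannot be told apart.

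Hearts within a group differed together. The median over the 10 genes of the log2 difference from the heart's own control mean was 0.88, 0.62 and 1.32 in EIIa-tg replicates 1, 2 and 3. In Myh6-tg replicates 1, 2 and 3 it was 0.01, 0.83 and 0.84. In Myh6-tg replicate 1 only 5 of the 10 genes were above the control mean, while in each of the other 5 transgenic hearts 9 were, Ccng1 being the exception. Hearts of the Myh6 model with the same number deviated together over all genes, so each Myh6-tg heart was also divided by the Myh6-ctl heart of its number. The ratios were 2.94, 6.28 and 6.56 for Cdkn1a, 2.90, 4.53 and 2.93 for Trp53inp1 and 2.18, 1.51 and 2.26 for Phlda3. Bax (1.26 to 1.92) and Bbc3 (1.38 to 2.34) were also above 1 in all 3 pairs and Ccng1 (0.358 to 0.519) below 1 in all 3. Eda2r gave 0.597, 1.10 and 1.34, and Mdm2 and Zmat3 likewise were below 1 only in the first pair, while Sesn2 was below 1 only in the second.

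**Figure D3:**
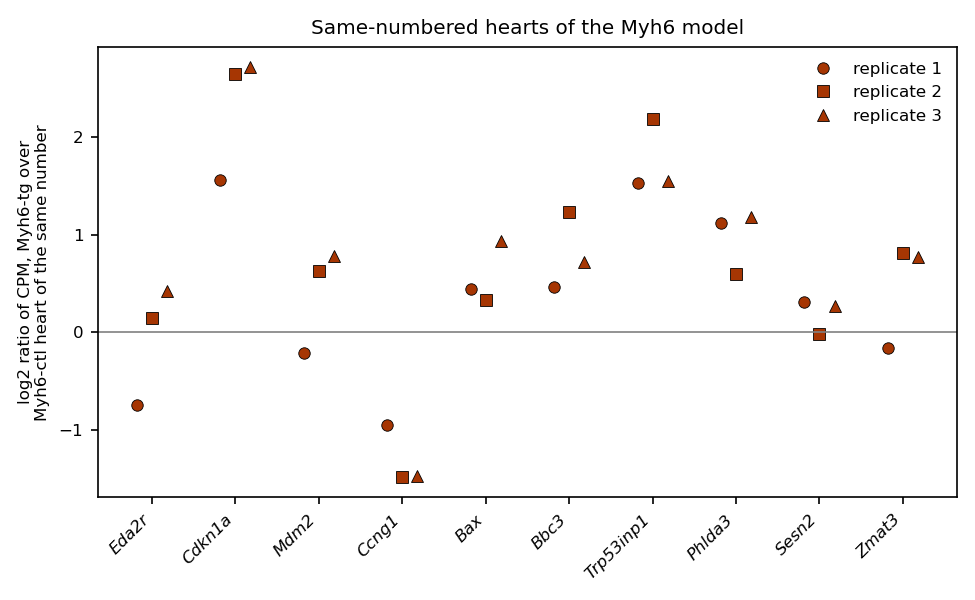
Log2 ratio of CPM in each Myh6-tg heart over the Myh6-ctl heart of the same replicate number (vertical axis) for the 10 genes; points are the 3 pairs and the line marks no difference. All pairs of Cdkn1a, Trp53inp1, Phlda3, Bax and Bbc3 are above the line and all pairs of Ccng1 below it, and the replicate 1 pair is the lowest for Eda2r, Mdm2 and Zmat3.

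In the control hearts, Myh6-ctl at day 90 stood above EIIa-ctl at day 30 without overlap for 5 genes. The ratio of mean CPM was 3.52 for Cdkn1a, 1.57 for Trp53inp1, 1.29 for Sesn2, 1.27 for Zmat3 and 1.23 for Mdm2. Eda2r (1.37), Phlda3 (1.55), Bax (1.32), Bbc3 (1.08) and Ccng1 (0.943) overlapped. Age, line, Cre and corn oil cannot be told apart here. On the scale per length (FPKM, fragments scaled to transcript length and library size), Ccng1 was the most abundant of the 10 genes in EIIa-ctl hearts, at 199 ± 10.4 FPKM (SD, n = 3), and Eda2r the least, at 1.07 ± 0.235. In EIIa-tg hearts Cdkn1a (145 ± 76.3 FPKM) and Ccng1 (140 ± 31.9) overlapped in level, and Eda2r reached 4.48 ± 1.31 FPKM, rank 7 of 10. In Myh6-tg hearts Cdkn1a stood at 294 ± 167 and Ccng1 at 103 ± 31.2 FPKM.

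Cell type markers moved in the same hearts. In EIIa hearts, 8 of 8 macrophage markers were called higher (summed level 495 to 760 CPM in EIIa-ctl and 1048 to 1380 in EIIa-tg). Of 8 fibroblast markers 3 were called higher (1290 to 1693 and 2207 to 3173), and all 8 were positive, 7 at an unadjusted p under 0.05 by edgeR. Of 8 cardiomyocyte markers 1 was called lower (38713 to 47028 and 19849 to 34209). By sign 7 of these 8 were negative, 6 were lower without overlap, and 6 had an unadjusted p under 0.05 by edgeR. The background in that comparison was 17% of genes called, 8.65% higher and 8.3% lower, but edgeR called 0 genes once replicate 1 of EIIa-ctl or of EIIa-tg was left out (4036 and 4173 at an unadjusted p under 0.05), so that no call in EIIa hearts, of markers or of the pathway genes that follow, held without either of them. The summed cardiomyocyte markers were 19866, 34209 and 19849 CPM in EIIa-tg replicates 1, 2 and 3, and replicate 2 was also the transgenic heart with the smallest changes of Eda2r, Cdkn1a and Phlda3. In Myh6 hearts 4 of 8 fibroblast markers were called higher (1691 to 2169 CPM in Myh6-ctl and 2920 to 6723 in Myh6-tg). Of 8 cardiomyocyte markers 4 were called lower (30478 to 40106 and 9573 to 30340). No macrophage marker was called (938 to 1523 and 1089 to 2397), with 2 at an unadjusted p under 0.05 and 0 by DESeq2 at the study's thresholds. By sign 6 of the 8 fibroblast and 7 of the 8 macrophage markers were positive and 6 of the 8 cardiomyocyte markers negative. Over all genes 18.3% were called. Of the 8 macrophage markers 4 were higher without overlap, against 20.6% of all genes. Their median log2 fold change was 0.58, beside 0.89 in EIIa hearts, and the test of the difference between models called 1 of the 8. Myh6-tg replicate 1, where the 10 genes differed least from controls, held 30340 CPM of cardiomyocyte markers, against 12257 and 9573 in replicates 2 and 3. Of 8 endothelial markers 3 fell in EIIa hearts and none was called in Myh6 hearts (3 at an unadjusted p under 0.05, 1 by DESeq2 at the study's thresholds), of 8 smooth muscle and pericyte markers 1 rose and 1 fell in EIIa and 1 rose and 2 fell in Myh6 hearts, and of the lymphocyte markers 0 of 6 tested (1 unadjusted) and 1 of 8, lower, were called. With the replicate block the Myh6 calls of Ms4a1, a lymphocyte marker (adjusted p = 0.0712), and Myh11, a smooth muscle marker (0.0629), were lost. No marker of these lists was at 0 in all hearts of a group. In these bulk samples fewer cells of a type and less RNA per cell cannot be told apart, and the part of the cell mixture in the levels of the 10 genes was not tested.

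Among the regulators of p53, Trp53 itself was at 25.4, 28.1 and 25.2 CPM in EIIa-ctl and 29.8, 27.1 and 37.9 CPM in EIIa-tg hearts. It was at 24.7, 29.2 and 20.2 CPM in Myh6-ctl and 16.2, 30.0 and 30.5 CPM in Myh6-tg hearts. The groups overlapped in both models (log2 fold change 0.26 ± 0.14, adjusted p = 0.206, and 0.05 ± 0.28, adjusted p = 0.922, edgeR). Of 13 regulators tested in the EIIa model 1 rose and 2 fell, and of 14 in the Myh6 model 1 rose and 1 fell. These are 23.1% and 14.3% of those tested, against 17% and 18.3% of all genes. Rchy1, a ubiquitin ligase for p53, rose in EIIa hearts (0.58, adjusted p = 0.0246) and Cop1, another, fell (-0.56, 0.0251). The checkpoint kinase gene Chek2 fell in both models (-0.66, 0.0438, and -1.15, 0.0411), and Ppm1d, a phosphatase that acts on p53 and is induced by it, rose in Myh6 hearts (0.65, 0.0493). With the replicate block Ppm1d was no longer called (adjusted p = 0.0654), and each of these regulator calls was lost without at least 1 heart.

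For Eda2r as a receptor, its ligand and downstream genes were measured in the same hearts. Eda was at 3.18 to 6.07 CPM over the 12 hearts, with overlapping groups in both models (log2 fold change 0.11 ± 0.21, adjusted p = 0.739, and 0.18 ± 0.33, adjusted p = 0.743, edgeR). Edar, the receptor of the other ectodysplasin form, stayed under 0.5 CPM in every heart and was not tested in the EIIa model. The list for this pathway held ligand, adaptor, kinase and NF-kappaB subunit genes, and also Edar and its adaptor. Of 13 of its genes tested in EIIa hearts, 2 rose and none fell (15.4% called, against 17% of all genes). They were Nfkb2 (21.4 to 44.3 CPM in mean, log2 fold change 1.05, adjusted p = 0.016) and Relb (0.73, 0.0227), which together form the non-canonical NF-kappaB dimer. In Myh6 hearts 0 of 14 were called by edgeR, with 1 at an unadjusted p under 0.05 and 0 by DESeq2 at the study's thresholds for adjusted p and fold change. The change itself differed between the models for 2 genes of the list, against 3.92% of genes in all (1.65% higher and 2.27% lower in the Myh6 model). These were Nfkb2 (-0.99, adjusted p = 0.0454) and Traf1, an adaptor (-1.99, adjusted p = 0.0137), and with the replicate block neither was called (0.0577 and 0.0521).

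The 47 other p53 targets were grouped by what their products do, and the list was made with earlier results of these data known. In the EIIa model 45 were tested, of which 10 rose and 4 fell (31.1% called, against 17% of all genes), with a median log2 fold change of 0.17. In the Myh6 model 6 rose and 4 fell of 47 (21.3%, against 18.3%), with a median of 0.18. The EIIa calls rested on single hearts: 0 of the 14 were left without EIIa-ctl replicate 1 or 3 or EIIa-tg replicate 1, and 1 without EIIa-tg replicate 3, with 20, 16, 19 and 16 at an unadjusted p under 0.05. Over all genes those EIIa fits called 0, 1, 0 and 133. In the Myh6 model 4 were left without Myh6-ctl replicate 1, and 6 without Myh6-ctl replicate 3, Myh6-tg replicate 2 or Myh6-tg replicate 3. Over all genes those Myh6 fits called 798, 1637, 982 and 969. Sfn, Btg2 and Ak1 stayed called in Myh6 hearts with any 1 heart left out. Fold changes below are log2 values, each with its adjusted p from edgeR.

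Of 12 death-related targets tested in EIIa hearts 4 rose and 1 fell (41.7% called, against 17% of all genes). The death receptor gene Fas rose from a mean of 14.2 to 24.6 CPM (0.78, 0.0227), and Dram1 (0.74, 0.0324), a lysosomal regulator of autophagy, Aen (0.53, 0.0366), a nuclease, and Pidd1 (1.67, 0.0426), a platform for caspase-2, rose too. Trp53i11 fell (-0.82, 0.0449). In Myh6 hearts 0 of 13 were called, with 2 at an unadjusted p under 0.05 and 0 by DESeq2 at the study's thresholds. By sign 10 of 12 were positive in EIIa hearts (median 0.20) and 10 of 13 in Myh6 hearts (median 0.41). The edgeR test of the difference between models called 0 of 13, with 4 at an unadjusted p under 0.05.

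Of 14 targets that act on growth, 4 rose and 1 fell in EIIa hearts, and of 15 in Myh6 hearts 6 rose and 1 fell. The shares called were 35.7% and 46.7%, against 17% and 18.3% of all genes. Gdf15, a secreted stress factor, was at 1.14, 6.41 and 1.39 CPM in EIIa-ctl and at 23.5, 13.5 and 33.2 CPM in EIIa-tg hearts (2.97, 0.0237), and without EIIa-ctl replicate 2 its log2 fold change was 4.21. As for Cdkn1a, replicate 2 was the highest control and the lowest transgenic heart. Gdf15 was at 7.06, 47.7 and 14.6 CPM in Myh6-ctl and at 24.5, 46.5 and 45.7 CPM in Myh6-tg hearts, which overlapped. Sfn, which encodes the cell cycle inhibitor 14-3-3 sigma, was at 2.50, 2.71 and 2.58 CPM in EIIa-ctl and at 6.78, 4.31 and 8.80 CPM in EIIa-tg hearts (1.34, 0.021). It was at 3.30, 5.75 and 2.75 CPM in Myh6-ctl and at 15.3, 34.0 and 35.7 CPM in Myh6-tg hearts (2.85, 0.00608). The antiproliferative gene Btg2 rose in both models (1.30, 0.03, and 1.61, 0.00892). Plk2, a kinase, rose in Myh6 hearts (0.91, 0.0124) and Kitl, the ligand of Kit, fell there (-1.10, 0.0173). Gadd45a, which is induced by DNA damage, was the only growth target called lower in EIIa hearts. It went from 19.0, 16.3 and 15.7 CPM in EIIa-ctl to 5.55, 9.55 and 5.48 CPM in EIIa-tg hearts (-1.30, 0.0172). Of the 14 growth targets tested there, 9 had positive and 5 negative fold changes. Gadd45a was at 10.8, 8.91 and 6.05 CPM in Myh6-ctl and at 14.3, 9.18 and 11.5 CPM in Myh6-tg hearts.

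Among the DNA repair targets, 1 of 9 rose and 1 fell in EIIa hearts, and 0 rose and 1 fell in Myh6 hearts. The shares called were 22.2% and 11.1%, against 17% and 18.3% of all genes. Rps27l was at 23.6, 27.9 and 22.7 CPM in EIIa-ctl and at 49.0, 36.9 and 50.7 CPM in EIIa-tg hearts (0.87, 0.0166). It was at 19.9, 49.0 and 35.5 CPM in Myh6-ctl and at 14.7, 39.2 and 33.9 CPM in Myh6-tg hearts, with each Myh6-tg heart below the control of its number. Rrm2b, a subunit of the p53-inducible ribonucleotide reductase, fell in both models (-0.49, 0.03, and -0.92, 0.0216). Of 10 metabolic targets 1 rose and 1 fell in EIIa and 2 fell in Myh6 hearts (20% called in each). The detoxifying enzyme gene Ephx1 was at 66.9, 93.0 and 77.9 CPM in EIIa-ctl and at 193, 169 and 227 CPM in EIIa-tg hearts (1.30, 0.0135). Ak1, the muscle adenylate kinase, fell in both (-0.52, 0.0374, and -1.61, 0.0106), and Pltp, a phospholipid transfer protein gene, fell in Myh6 hearts (-0.90, 0.0247).

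**Figure D4:**
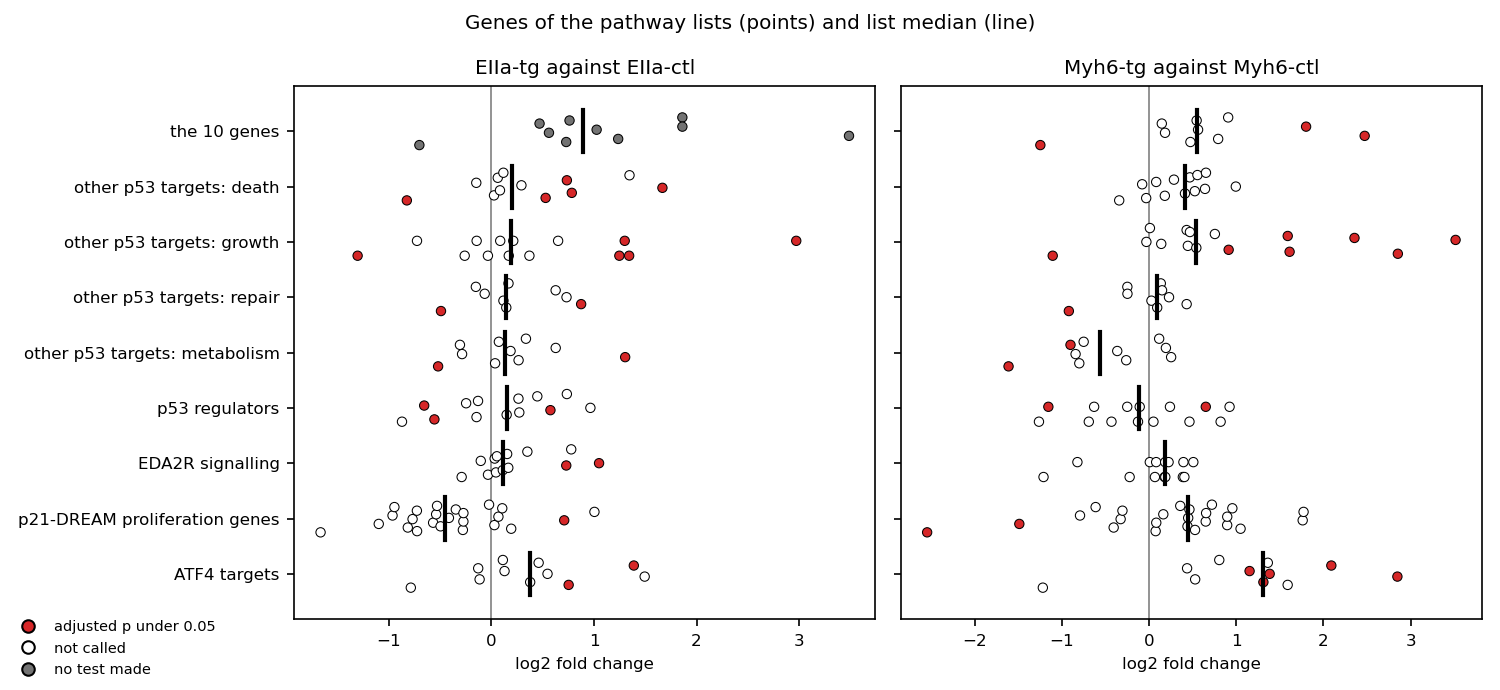
Log2 fold change (horizontal axis) of every tested gene of the pathway lists in the EIIa model (left) and the Myh6 model (right); each point is a gene, filled red where its adjusted p is under 0.05 and grey where no test was made, and the vertical line is the list's median. The median of the 10 genes lies at 0.89 and 0.55, while those of the other targets together are 0.17 (45 tested) and 0.18 (47 tested). The EIIa hearts were used to choose Eda2r, so nothing is read from the value of 0.89.

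p21 acts through the DREAM complex to silence genes of cell division. Of 24 such genes, 1 rose in EIIa hearts (Mcm7, 0.71, adjusted p = 0.0253, edgeR) and 2 fell in Myh6 hearts (Mcm2, -1.49, 0.0089, and Cenpf, -2.55, 0.0326), while 23 and 22 were not called; Mcm2 stayed called with any 1 heart left out and Cenpf did not. The shares called, 4.17% in EIIa and 8.33% in Myh6 hearts, were below the 17% and 18.3% of all genes. The medians of the 24 genes had opposite signs, -0.46 in EIIa and 0.44 in Myh6 hearts. ATF4, a stress-induced factor, also regulates Sesn2. Of 11 of its targets tested, ATF4 itself included, 2 rose in EIIa hearts (18.2%) and 5 in Myh6 hearts (45.5%). Atf4 rose in both models (0.75, adjusted p = 0.0227, and 1.15, 0.0161). Slc7a11, another gene of that list, rose in Myh6 hearts (2.85, 0.0306; 1.96 on the log2 scale without Myh6-tg replicate 1) and was no longer called with the replicate block (adjusted p = 0.0549).

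The genes most like Eda2r over the 12 hearts were taken by Pearson's r of log2 CPM among 13090 genes with a mean of at least 1 CPM. They were Slc25a23 (0.98), Gm19426 (0.95), Hist1h4h (0.95), the unannotated locus NewGene_6197 (0.94) and Slc6a15 (0.94). The listed p53 targets Rps27l and Aen, named here because they ranked 7 and 11, gave 0.92 and 0.91. The other 9 genes ranged from 0.79 (Bax), 0.78 (Phlda3) and 0.77 (Mdm2) through 0.63 (Sesn2), 0.58 (Zmat3), 0.56 (Cdkn1a), 0.37 (Trp53inp1) and 0.28 (Bbc3) to -0.43 (Ccng1). The 12 points share 4 groups and their libraries, and the EIIa rise that chose Eda2r enters each value.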

How the data were processed

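RNA from 12 mouse hearts was sequenced by the authors as paired-end reads (NEBNext Ultra libraries, NovaSeq) and mapped to GRCm38 with Hisat2 (HISAT2 2.0.4 and StringTie 2.2.1 in the submitters' processing notes, which also name other builds). The authors deposited a table of raw counts and a table of FPKM values per gene and heart. The counting program and annotation are not given in the sources used here. Groups came from the sample titles: the genotype entries of EIIa-tg replicates 2 and 3 differ from that of replicate 1, and the labelled extraction protocol names brain although the tissue label is heart. Members and gene lists were chosen with earlier results of these data known.

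Counts were tested per model (6 hearts) with edgeR 4.0.16 (R 4.3.3): filterByExpr, TMM, quasi-likelihood test, two-sided, Benjamini-Hochberg adjustment over all genes tested. The difference between models was a contrast over all 12 hearts. CPM used TMM-scaled totals. FPKM served for levels per length and, as log2(FPKM + 1) or log2(FPKM + 0.1) in limma 3.58.1, as an alternative, as did DESeq2 1.42.0. The test was tried on simulated data. Named were all 10 members, any tested gene of the regulator and receptor pathway lists, at most the 5 called genes of lowest p per other list, Trp53, Eda, Edar and Esr1, and the 5 genes most like Eda2r. A result that this rule would name is not reported here.

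The labels number the hearts of each group 1 to 3 without saying that they came from separate litters, so p-values measure the spread between these hearts. Same-numbered hearts of the Myh6 model deviated together (correlations over genes 0.173 to 0.285, all over 0.1, and -0.239 to 0.0485 for differing numbers). Those of the EIIa model did not (-0.0704 to 0.0602). The Myh6 hearts were taken as pairs only in the same-number ratios and in the fit with a replicate block. The main tests had no pairing term, so the Myh6 calls are unpaired unless the block is named. Sex moved with replicate number, so the block also takes in sex.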

Additional observations from a re-analysis of the deposited data

Results flagged for a closer look

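Of the genes listed beside the 10 members, 10 changed differently in the Myh6 and EIIa models by the test of the difference itself (edgeR contrast over 12 hearts, adjusted p under 0.05). The share called over all genes was 3.92%. It was 6.38% of 47 other p53 targets, 14.3% of 14 EDA2R pathway genes, 4.17% of 24 cell division genes and 9.09% of 11 ATF4 targets. It was 12.5% of 8 fibroblast, macrophage, or smooth muscle and pericyte markers each, and 0 in the remaining lists. Each list held at most 3 such calls. Values are the log2 change in Myh6-tg minus that in EIIa-tg hearts. Among p53 targets the difference was 1.75 for Gadd45a (adjusted p = 0.0242), -0.97 for Kitl (0.0456) and -1.24 for Pltp (0.0175). In the EDA2R pathway it was -1.99 for Traf1 (0.0137) and -0.99 for Nfkb2 (0.0454). It was -1.14 for Mcm2 (0.0308), a replication gene, and 2.21 for Chac1 (0.032), an ATF4 target. Among cell type markers it was 3.41 for the fibroblast gene Postn (0.0154), -1.64 for the macrophage gene Adgre1 (0.0289) and -1.27 for Abcc9 (0.0189). Abcc9 was listed here as a smooth muscle and pericyte marker, and the cell type behind its change was not tested. With any 1 heart left out Traf1 and Postn stayed called, while each of the other 8 lost its call without at least 1 heart. With the replicate number as a block within each model 5 calls were lost, those of Traf1 (adjusted p = 0.0521), Nfkb2 (0.0577), Kitl (0.0659), Mcm2 (0.0746) and Adgre1 (0.0616), and Gadd45a, Pltp, Chac1, Postn and Abcc9 stayed called.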

How the results depend on the processing

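Over the 10 genes and 17 alternatives, 146 of 170 Myh6 fold changes kept their direction and side of the threshold, 11 passed it anew, 9 lost it and 4, all of Eda2r, reversed: -0.045 with the replicate block and -0.14, -0.03 and -0.24 without Myh6-ctl replicate 1, Myh6-tg replicate 2 and Myh6-tg replicate 3, in a range of -0.24 to 0.57 with a heart left out. With the pairing as a replicate block Phlda3 was called (adjusted p = 0.0159), and no other member call changed. The EIIa fold changes moved by more than the replicate spread in 2 of 170 and changed sign in none. In the EIIa comparison 2527 genes and 14 other p53 targets were called; with the replicate block these were 1 and 0, in one fit of all 12 hearts 227 and 1, with log2(FPKM + 1) and no filter 1 and 0, and in replicates 2 and 3 only, chosen after seeing the data, 0 and 0 (2824 and 15 at an unadjusted p under 0.05). Leaving out each heart in turn gave 0 to 4079 genes and 0 to 17 targets. In the Myh6 comparison 2805 genes were called, 5049 in one fit of all 12 hearts and 4228 with log2(FPKM + 1), and 798 to 4269 with a heart left out. The 3 called members became 5 with log2(FPKM + 1), 5 with log2(FPKM + 0.1), 5 in replicates 2 and 3 only and 0 to 6 with a heart left out; the 10 other targets became 4 to 11. The difference between models was called for 624 genes, 1395 by DESeq2 and 293 to 1727 with a heart left out. On the FPKM + 1 scale the median of all genes shifted by 0.34 in Myh6 and 0.16 in EIIa hearts. The cause of these moves was not tested.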
